A study of Mus musculus with 20 samples.

Results

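Bone marrow neutrophils of imiquimod (IMQ)-treated mice that lack Bmal1 in myeloid cells (Bmal1 Mye-/-) were compared with those of IMQ-treated wild type (WT) mice by RNA-seq. The comparison takes every library labelled as IMQ-treated, 5 of each genotype, which are 10 of the 20 libraries of the series, and all 24421 genes of the count files. IMQ is a TLR7/8 agonist that induces lupus-like disease when applied to skin. All mice were female and 8 to 10 weeks old at the start, the cream was put on both ears 3 times per week over 6 weeks, and they were killed between zeitgeber times 1 and 4. The untreated libraries, also 5 per genotype, come from other mice and are used here only for side values. WT were C57BL/6J mice bought from a supplier. Bmal1 Mye-/- were bred in-house as Bmal1FloxP/FloxP;LysMCre, from B6.129S4(Cg)-Bmal1tm1Weit/J and B6.129P2-Lyz2tm1(cre)Ifo/J. The Cre is inserted at Lyz2 and is active in monocytes and macrophages as well as in neutrophils. Since the WT carried neither the floxed allele nor the Cre, loss of Bmal1, DNA of the donor strain near either allele, the altered Lyz2 locus and the origin of the mice cannot be told apart in any difference between the genotypes.

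BMAL1, which the files list as Arntl, pairs with CLOCK, binds E-box sequences and drives clock genes, among them the Per and Cry repressors that close the loop. Neutrophils are made in the bone marrow, where they fill primary granules first and secondary and tertiary granules later, shut down protein synthesis as they mature, and leave for the blood with a daily rhythm. In circulating neutrophils, BMAL1 is known for its part in ageing through the chemokine receptor CXCR2. Cells were taken by negative selection, which removes other cells with antibodies, so cells that escape the antibodies stay in the sample. The paper assessed the purity of the neutrophils by flow cytometry and reports it as high, without a value for each library.

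The 5 WT libraries held 49455135 to 66124322 reads on genes and the 5 Bmal1 Mye-/- libraries held 41955911 to 82633516. Markers that define neutrophils (S100a8, S100a9, Camp, Ltf, Ngp and others, 12 genes) summed to 106000 to 170700 CPM (reads per 1e6 reads on genes, scaled between libraries) in WT and to 74990 to 163700 CPM in Bmal1 Mye-/-, so the label holds in each library. Some libraries stood apart. Bmal1 Mye-/- replicate 1 and WT replicate 3 had the lowest summed level of these markers in their groups, and 6.5% and 6.34% of their reads did not align uniquely, against 4.40% to 5.75% in the other 8. WT replicate 1 and Bmal1 Mye-/- replicate 4 had the highest level in their groups for 36 of 37 interferon-stimulated genes each. Where leaving out 1 library moved the median of a gene list described below by over 1.5 times, the value without it, or the range of such values, is given. Of the genes, 12648 had enough reads to be tested, and their median log2 fold change, Bmal1 Mye-/- over WT, was 0.02, with 6578 above 0.

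Arntl, the targeted gene (chromosome 7 of mm10, 113178471 to 113314126), was at 1.51, 0.427, 0.542, 0.35 and 0.706 CPM in the 5 Bmal1 Mye-/- libraries and at 0.565, 1.09, 1.84, 1.02 and 1.05 CPM in WT. The groups overlap, because Bmal1 Mye-/- replicate 1 lies above all but 1 of the WT libraries and WT replicate 1 below 2 of the Bmal1 Mye-/- libraries. The log2 fold change was −0.65 (standard error 0.45, adjusted p = 0.579, by the quasi-likelihood test of edgeR and adjusted over the 12648 genes after Benjamini and Hochberg, as for every adjusted p here). The files hold 1 count per gene, so reads on the floxed exon cannot be separated from the rest of the transcript, and this level does not check the deletion. Leaving out single libraries moved the value from −1.14 to −0.39.

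The clock genes that BMAL1 acts on were measured too, and none of the 23 tested clock genes passed the test in edgeR, DESeq2 or limma, while 2, Per3 and Wee1, had an unadjusted p under 0.05 in edgeR with a higher level in Bmal1 Mye-/-, beside 5.45% of all tested genes. Per1 and Per2, which encode repressors of BMAL1, had log2 fold changes of −0.01 (standard error 0.36) and −0.24 (standard error 0.27). Per3, a further member of that family, had the smallest unadjusted p of the repressors, with WT libraries at 1.61 to 2.63 CPM and Bmal1 Mye-/- libraries at 2.32 to 4.21 CPM (log2 fold change 0.67, standard error 0.24, adjusted p = 0.579). The nuclear receptors of the second loop, Nr1d1 and Nr1d2, which repress Arntl, had values of 0.21 and 0.64 with standard errors of 0.26 and 0.48. Dbp and Tef, output factors of the loop, were at 0.37 and 0.59, again with adjusted p of 0.582 and 0.579. Wee1, a mitotic kinase with E-boxes in its promoter, had 1.10 (standard error 0.42, adjusted p = 0.579). Wee1 lies on the same chromosome as Arntl, at −3.06 Mb from its start. Loss of Bmal1 and DNA of the donor strain cannot be told apart for it. Over the 9 repressors the median was −0.14, which turned to 0.04 on log2 CPM without trimmed scaling, and −0.05 without WT replicate 4. Over the 12 genes of the second loop and outputs it was 0.37, and 0.25 without Bmal1 Mye-/- replicate 1.

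Between IMQ-treated Bmal1 Mye-/- and WT neutrophils, 16 of 12648 genes (0.127%) passed an adjusted p of 0.05. In 11 of them the level rose and in 5 it fell. At an unadjusted p of 0.05, 689 genes (5.45%) had a positive and 186 (1.47%) a negative fold change. The groups did not overlap for 97 genes (0.767%) that were higher in Bmal1 Mye-/- and for 38 (0.3%) that were lower. In the plot of the 16 genes by library, all 16 are among these.

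**Figure D1:**
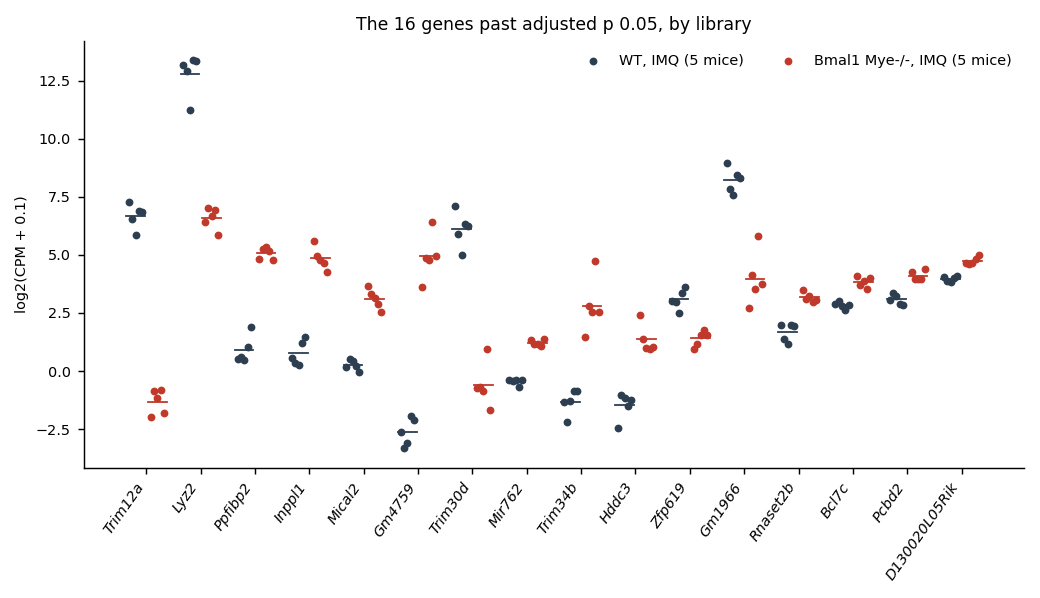
Level of the 16 genes past adjusted p 0.05 in each IMQ-treated library. The vertical axis is log2(CPM + 0.1), each point is 1 mouse, blue for WT and red for Bmal1 Mye-/-, and the lines are group means. The points of the groups do not overlap for any of the 16 genes. Trim12a, Lyz2 and Trim30d fall furthest, and Gm4759 rises furthest.

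The smallest adjusted p belonged to Trim12a (chromosome 7, 104299893 to 104315558), a gene of the tripartite motif (TRIM) family of ubiquitin ligases, many of which act against viruses. It was at 154, 93.0, 58.3, 119 and 114 CPM in the WT libraries and at 0.155, 0.451, 0.343, 0.471 and 0.183 CPM in Bmal1 Mye-/-. It was thus nearly without reads in each Bmal1 Mye-/- library (log2 fold change −8.41, standard error 0.43, adjusted p = 7.09e-06). Trim30d, of the same family and gene cluster, fell from 140, 59.6, 32.1, 80.0 and 76.4 CPM in WT to 0.503, 0.522, 0.452, 1.86 and 0.209 CPM (−6.76, standard error 0.66, adjusted p = 0.000918). Trim34b, a further member, went the other way, from 0.119 to 0.450 CPM in WT to 2.63, 6.95, 5.71, 26.4 and 5.70 CPM in Bmal1 Mye-/- (4.86, standard error 0.67, adjusted p = 0.0224). Replicate 4, the Bmal1 Mye-/- library with high interferon-stimulated genes, was the highest of its group for Trim30d and Trim34b. Adjusted p for Trim34b ran from 0.0505 to 0.0908 when any 1 WT library was left out. Reads of such close family members can be split between copies by an aligner, so the levels of single TRIM genes are uncertain. Nearby, Trim6 and Trim30b were close to the threshold, at −2.50 (standard error 0.41, adjusted p = 0.0515) and −2.92 (standard error 0.51, adjusted p = 0.0759), and Trim68 had 1.53 (adjusted p = 0.102). Trim30a, an interferon-stimulated member, was at −0.41 (standard error 0.58, adjusted p = 0.722).

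A pair of predicted genes lay close to that cluster. Gm1966 fell from 493, 231, 192, 348 and 323 CPM in WT to 6.43, 17.2, 11.5, 55.8 and 13.3 CPM in Bmal1 Mye-/- (−3.93, standard error 0.58, adjusted p = 0.0285). Gm4759, annotated as a transcribed pseudogene, had 0 to 9 reads in each WT library and 945 to 6443 in each Bmal1 Mye-/- library, with 12.2, 29.4, 27.1, 86.7 and 31.3 CPM in the latter (8.92, standard error 0.79, adjusted p = 0.000405). The size of that fold depends on how the few WT reads are handled, but the groups are far apart. Replicate 4 was again the highest Bmal1 Mye-/- library for both. The call of Gm1966 was lost in 7 of the 10 fits that left out 1 library, with adjusted p of at most 0.125.

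Among the other genes of chromosome 7 that rose, Ppfibp2, which encodes a liprin scaffold protein, went from 1.32, 1.44, 1.27, 1.93 and 3.68 CPM in WT to 28.2, 38.1, 40.2, 35.7 and 27.8 CPM in Bmal1 Mye-/- (4.14, standard error 0.32, adjusted p = 0.000231). Inppl1, which encodes SHIP2, an inositol phosphatase that acts on the products of PI3 kinase, went from 1.38, 1.17, 1.10, 2.19 and 2.64 CPM to 48.7, 30.9, 27.5, 24.9 and 19.0 CPM (4.15, standard error 0.35, adjusted p = 0.000335). Its annotation overlaps Phox2a, and the strand setting of the counts is not given. Mical2, an oxidase that takes actin filaments apart, went from 1.03, 1.32, 1.25, 1.07 and 0.881 CPM to 12.4, 9.78, 8.87, 7.22 and 5.69 CPM (2.98, standard error 0.25, adjusted p = 0.000335). Each of these genes was low in all WT libraries and severalfold higher in all Bmal1 Mye-/- libraries. These 3, with Trim12a, Trim30d, Gm4759 and Lyz2, passed the test in each alternative fit that could test them.

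Hddc3 and Zfp619 lay further from Arntl. Hddc3, which encodes a phosphohydrolase homologous to bacterial alarmone hydrolases, rose from 0.0837 to 0.395 CPM in WT to 5.28, 2.47, 1.92, 1.84 and 1.96 CPM (3.26, standard error 0.47, adjusted p = 0.0274). Zfp619, a zinc finger gene, fell from 8.06, 7.84, 5.53, 10.1 and 12.1 CPM to 1.84, 2.16, 2.84, 3.30 and 2.84 CPM (−1.75, standard error 0.25, adjusted p = 0.0285). Both calls depend on single libraries, since their adjusted p reached 0.111 without WT replicate 4.

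By position, 12 of the 16 genes (75.0%) lie on chromosome 7, where Arntl lies as well and where 978 of the 12648 tested genes (7.73%) are found. Counted in windows of 5 Mb from the start of Arntl, 6 of the 24 genes tested between −10 and −5 Mb passed the test, and 11 of these 24 had an unadjusted p under 0.05. Between −15 and −10 Mb it was 1 of 54, between −5 and 0 Mb 1 of 31, between 0 and 5 Mb 0 of 18 and between 10 and 15 Mb 2 of 101. The nearest called gene was Mical2, at −0.953 Mb, and the furthest Zfp619, at −73.7 Mb. Over the whole of chromosome 7, 108 of the 978 tested genes had an unadjusted p under 0.05, which is 12.3% of the 875 such genes. Which DNA of the donor strain the Bmal1 Mye-/- mice carry around Arntl was not analysed here.

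**Figure D2:**
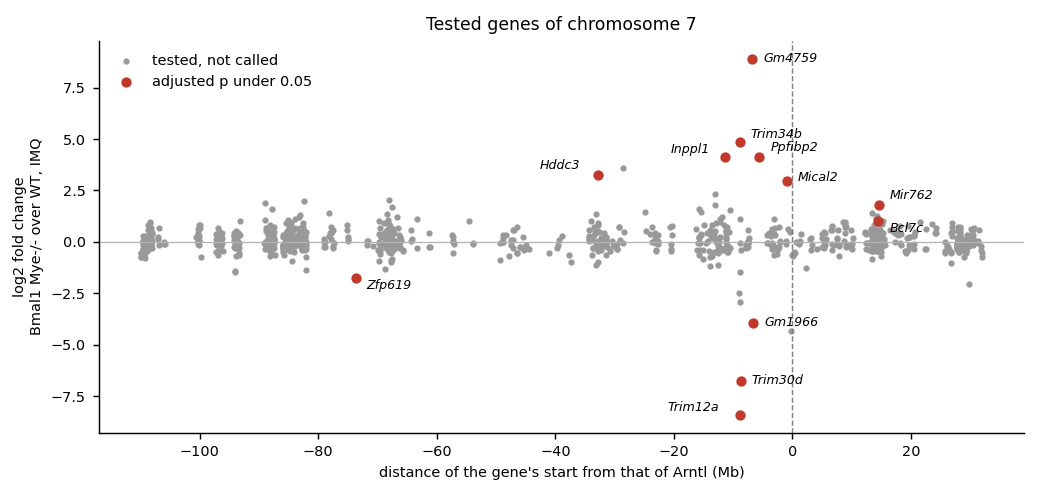
Log2 fold change (Bmal1 Mye-/- over WT, IMQ-treated) of the tested genes of chromosome 7 against the distance of the start of each gene from that of Arntl, in Mb, with the dashed line at Arntl. The 12 genes past adjusted p 0.05 are red and named. Of these, 6 lie between −10 and −5 Mb, Mir762 and Bcl7c at 14.5 Mb, Hddc3 at −32.8 Mb and Zfp619 at −73.7 Mb.

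Bcl7c and Mir762 form 1 locus at 14.5 Mb beyond Arntl. Bcl7c (chromosome 7, 127661454 to 127708766) encodes a subunit of SWI/SNF chromatin remodelling complexes. Mir762 (127708487 to 127708562) is the 76-base hairpin of a microRNA and lies inside the span of Bcl7c. Mir762 was at 0.670, 0.652, 0.670, 0.517 and 0.656 CPM in WT and at 2.41, 2.13, 2.13, 1.99 and 2.51 CPM in Bmal1 Mye-/-, a narrow spread in both groups (1.82, standard error 0.22, adjusted p = 0.00819). Bcl7c was at 7.39, 7.90, 6.94, 6.03 and 7.07 CPM in WT and at 17.1, 12.8, 14.6, 11.5 and 16.2 CPM in Bmal1 Mye-/- (1.03, standard error 0.16, adjusted p = 0.0365). Both genes of the locus rose, in all 5 libraries of the group. The call of Mir762 was lost without WT replicate 2 (adjusted p = 0.0534), and that of Bcl7c in 9 of the 10 fits without 1 library, with adjusted p of 0.0558 to 0.154. Poly(A) libraries do not measure mature microRNAs, so reads on Mir762 come from longer transcripts over its hairpin. Its mature sequence from RefSeq (GRCm38.p6, chr7:127708534-127708555, plus strand) is shown to identify the microRNA, with its seed, bases 2 to 8, in capitals.
mmu-miR-762: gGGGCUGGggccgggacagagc

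An E-box, the sequence that BMAL1 and CLOCK bind, was searched for in the promoters of the 16 genes as the letters CACGTG, which read the same on both strands. The windows reach from 250 bases before to 50 after a transcript start of a gene (RefSeq, GRCm38.p6), and 14 of the 16 genes had one. The E-box stood in 3 of these 14, Mical2, Bcl7c and Zfp619, and in 2187 of 27025 genes (8.09%) with a window. That share takes in genes that were not tested here, so it is not a matched background for the called genes. Mical2 and Bcl7c rose and Zfp619 fell. A stretch of 60 bases around the E-box is given for each, with that of Per1, a known target of BMAL1 whose level did not pass the test here, and with the E-box in capitals.
Per1 (chr11:69098756-69098815, plus strand): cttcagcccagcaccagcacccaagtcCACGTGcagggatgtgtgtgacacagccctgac
Mical2 (chr7:112225644-112225703, plus strand): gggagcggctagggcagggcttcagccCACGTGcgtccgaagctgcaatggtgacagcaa
Bcl7c (chr7:127708888-127708947, minus strand): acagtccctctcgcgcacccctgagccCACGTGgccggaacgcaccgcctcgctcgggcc
Zfp619 (chr7:39517554-39517613, plus strand): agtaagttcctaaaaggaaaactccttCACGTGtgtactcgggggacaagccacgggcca
The E-box begins 166, 165, 154 and 185 bases before the transcript start on which the RefSeq window is built in Per1, Mical2, Bcl7c and Zfp619. For Per1 that start lies inside the annotated span of the gene. These are matches of letters, with no measure of binding.

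Of the 4 called genes off chromosome 7, Lyz2 (chromosome 10, 117277541 to 117282272) encodes lysozyme M, a bactericidal enzyme of neutrophil granules, and carries the Cre insertion in Bmal1 Mye-/-. It fell from 9214, 7712, 2419, 10760 and 10560 CPM in WT to 85.1, 131, 103, 123 and 58.4 CPM (−6.34, standard error 0.48, adjusted p = 0.000231). WT replicate 3 was the lowest of its group and still far above each Bmal1 Mye-/- library. The paralog Lyz1 was at 1.92 to 12.5 CPM in WT and at 1.44 to 11.6 CPM in Bmal1 Mye-/- (−0.42, standard error 0.55, adjusted p = 0.699).

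Rnaset2b (chromosome 17) encodes an acid ribonuclease of lysosomes that degrades RNA and makes ligands of endosomal Toll-like receptors. It rose from 3.89, 2.53, 2.15, 3.82 and 3.75 CPM in WT to 11.1, 8.59, 9.41, 7.78 and 8.29 CPM in Bmal1 Mye-/- (1.49, standard error 0.22, adjusted p = 0.0291). Its near-identical copy Rnaset2a is listed at 0 in all 10 libraries, so how reads were shared between the copies is uncertain. Pcbd2 (chromosome 13), a pterin dehydratase and cofactor of HNF1, rose from 8.29, 10.3, 9.30, 7.40 and 7.03 CPM to 18.9, 15.4, 15.3, 15.7 and 21.1 CPM (1.03, standard error 0.16, adjusted p = 0.0439). D130020L05Rik (chromosome 12), a long noncoding RNA that overlaps Ppp4r3a, rose from 16.4, 14.8, 14.1, 15.8 and 17.1 CPM to 25.2, 24.3, 25.1, 28.5 and 32.0 CPM (0.79, standard error 0.13, adjusted p = 0.0439). The 5 Bmal1 Mye-/- libraries of each gene lay close together and above WT. These calls were close to the threshold: without any 1 library, adjusted p was 0.0657 to 0.175 for D130020L05Rik, 0.0505 to 0.174 for Pcbd2 and up to 0.124 for Rnaset2b.

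The same genotypes without IMQ were compared in a separate fit, in which 59 of 13339 genes (0.442%) passed the test. All 16 genes called with IMQ were tested there and had the same direction, and 11 also passed the test, which is 68.8% of the calls with IMQ and 18.6% of those without. In untreated mice the log2 fold changes of those that fell were −7.98 for Trim12a, −6.39 for Lyz2, −6.63 for Trim30d, −4.07 for Gm1966 and −2.13 for Zfp619. Those that rose had 7.73 for Gm4759, 4.40 for Trim34b, 3.91 for Inppl1, 3.33 for Ppfibp2, 2.49 for Mical2 and 2.17 for Hddc3. The other 5 passed only the test with IMQ: untreated values were 0.13 for Mir762, 0.14 for Bcl7c, 0.18 for Rnaset2b, 0.04 for Pcbd2 and 0.15 for D130020L05Rik. The difference of the 2 effects was tested as an interaction of genotype and treatment over all 20 libraries. It was 1.67 for Mir762, 0.89 for Bcl7c, 1.30 for Rnaset2b, 0.98 for Pcbd2 and 0.63 for D130020L05Rik, each with an adjusted p of 0.640. For the 11 genes called in both conditions it ran from −0.43 for Trim12a to 1.18 for Gm4759, with 1.09 for Hddc3 and 0.80 for Ppfibp2, and adjusted p was 0.640 to 0.968. In edgeR's test no gene passed for the interaction, and 721 had an unadjusted p under 0.05. The low-count filter over all 4 groups keeps 14030 genes.

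Of the members of the 55 gene lists, Lyz2 alone passed the test in edgeR's fit of the 10 IMQ libraries and in limma. DESeq2 added 7 list members, of which Pgls and Mgl2 are described further on. Outside the called genes, markers of eosinophils, granulocytes that share precursors with neutrophils, had the highest median of all 52 gene lists with 5 or more tested genes. The median log2 fold change of the 10 markers was 1.91, with 8 above 0, against 0.02 over all tested genes and 0.28 for this list without IMQ. None passed the test in edgeR's fit of the 10 IMQ libraries or in limma. In DESeq2 5 did (Epx, Prg2, Prg3, Ear1 and Ear6), beside 63 of the 12648 tested genes. In an edgeR fit of all 4 groups together Epx, Prg2 and Prg3 passed, with adjusted p of 0.0439, 0.0268 and 0.0182. That fit called 41 of 14030 genes. An unadjusted p under 0.05 with a higher level in Bmal1 Mye-/- was found in edgeR for 6 of 10, beside 5.45% of all genes. The genes of the eosinophil granule carried it. Epx, the eosinophil peroxidase, was at 3.08, 4.68, 1.36, 5.15 and 3.68 CPM in WT and at 18.5, 29.2, 49.0, 5.47 and 38.4 CPM in Bmal1 Mye-/- (2.97, standard error 0.54, adjusted p = 0.0962). Prg2, the major basic protein, was at 11.3, 20.9, 7.04, 12.5 and 14.4 CPM in WT and at 54.0, 68.5, 129, 19.4 and 114 CPM in Bmal1 Mye-/- (2.54, standard error 0.47, adjusted p = 0.0962). Prg3, its homolog, was at 0.0858 to 0.533 CPM in WT and at 2.69, 3.58, 5.26, 0.714 and 4.12 CPM in Bmal1 Mye-/- (3.59, standard error 0.64, adjusted p = 0.0783). The groups do not overlap for Epx and Prg3, and Bmal1 Mye-/- replicate 4 was the lowest of its group for all 3. Without replicate 4, adjusted p of Prg3, Epx and Prg2 was 0.0109 to 0.0256, while over all alternatives it ran from 1.09e-06 to 0.717.

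The values of the other eosinophil markers ran from well above 0 to slightly below it. Ear1 and Ear6, eosinophil ribonucleases, were at 2.73 and 2.24 (standard errors 0.61 and 0.59), and Alox15, a lipoxygenase, at 1.58 (standard error 0.49). Siglecf and Ccr3, surface receptors of mature eosinophils, were at −0.03 and 0.06 with standard errors of 0.21 and 0.62, Il5ra, the receptor of interleukin-5, was at 0.39 (standard error 0.79) and Ear2 at −0.17 (standard error 0.27). In summed level, the 10 markers were at 46.7 to 219 CPM in Bmal1 Mye-/- and at 22.4 to 45.3 CPM in WT, without overlap. The median stayed from 1.45 to 2.13 when single libraries were left out, and was 1.94 without Bmal1 Mye-/- replicate 1 and WT replicate 3. In bulk RNA, more cells of a type and more RNA per cell cannot be told apart. The promoter window of Prg3 was searched on both strands for GATAA, a core motif of GATA factors. It held the motif more than once, and 28.4% of 27025 genes hold it at least once. That stretch is shown because GATA factors drive eosinophil granule genes, with the motif, here on the minus strand, in capitals. The window of Epx held none.
Prg3 (chr2:84988070-84988129, plus strand): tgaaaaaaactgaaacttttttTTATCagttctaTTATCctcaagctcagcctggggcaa

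Basophil and mast cell markers had a median of 1.497 (7 tested, 6 above 0, 0.30 without IMQ, 0.97 without Bmal1 Mye-/- replicate 1), and none passed the test. The 1 tested marker below 0 was at −0.15. In summed level the 11 measured markers overlapped between the groups. They were at 455.8 to 1481 CPM in Bmal1 Mye-/- (median 1027) and at 443.7 to 1442 CPM in WT (median 1217). The mean log2(CPM + 0.1) of the 7 tested markers was 1.75 to 3.14 in Bmal1 Mye-/- and 1.51 to 1.87 in WT. The sum therefore reflects mainly the most abundant markers and not the list as a whole. Mcpt8, a protease of basophils, was at 1.13, 0.829, 0.824, 0.696 and 0.844 CPM in WT and at 4.54, 3.63, 1.68, 0.673 and 2.76 CPM in Bmal1 Mye-/- (1.62, standard error 0.45, adjusted p = 0.579). Replicate 4 lies below all WT libraries, and the other 4 Bmal1 Mye-/- libraries above them. Cpa3, a carboxypeptidase of mast cells and basophils, was at 2.39 (standard error 0.75) and Gata2, a factor of their precursors, at 1.497 (standard error 0.61). Tpsb2, a defining protease of connective tissue mast cells, is listed at 0.

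Monocyte markers had a median of 0.82 (14 tested, 9 above 0), but 1 library decided it. Ccr2, the chemokine receptor of inflammatory monocytes, was at 27.3 to 47.0 CPM in WT and at 413, 110, 36.5, 44.6 and 25.2 CPM in Bmal1 Mye-/- (1.78, standard error 0.69, adjusted p = 0.579). Klf4 and Irf8, transcription factors of monocytes, were at 136 and 132 CPM in Bmal1 Mye-/- replicate 1, at 43.7 and 47.5 CPM in replicate 2 and at 6.47 to 14.4 CPM in the other 3. Without replicate 1 the median of the list was 0.04. The same library set the platelet and megakaryocyte list, with a median of 0.93 over 11 genes and 0.39 without it, and the MHC class II list, with 0.60 over 9 genes and −0.05 without it. In that library Ctsc and S100a10, whose means were higher in Bmal1 Mye-/-, were also far from the others, at 311 CPM against 37.7 to 87.6 CPM and at 108 CPM against 8.75 to 32.8 CPM.

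Erythroid markers had the lowest median of all lists, −0.98, with all 9 tested genes below 0, and none passed the test. Klf1, the master factor of red cell precursors, was at 3.27, 4.48, 22.8, 7.45 and 7.86 CPM in WT and at 3.26, 1.45, 3.58, 3.61 and 8.80 CPM in Bmal1 Mye-/- (−1.14, standard error 0.57, adjusted p = 0.579). WT replicate 3 is far above the rest, and without it the median of the list was −0.47. The highest Bmal1 Mye-/- library for all 9 genes was replicate 5, and without it the median was −1.69. The globin genes Hba-a1, Hba-a2, Hbb-bs and Hbb-bt are listed at 0 in all 10 libraries. Of B-lineage markers 4 and of T and NK markers 2 had enough reads to be tested, and macrophage markers had a median of 0.03, which ran from −0.16 to 0.59 when single libraries were left out.

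**Figure D3:**
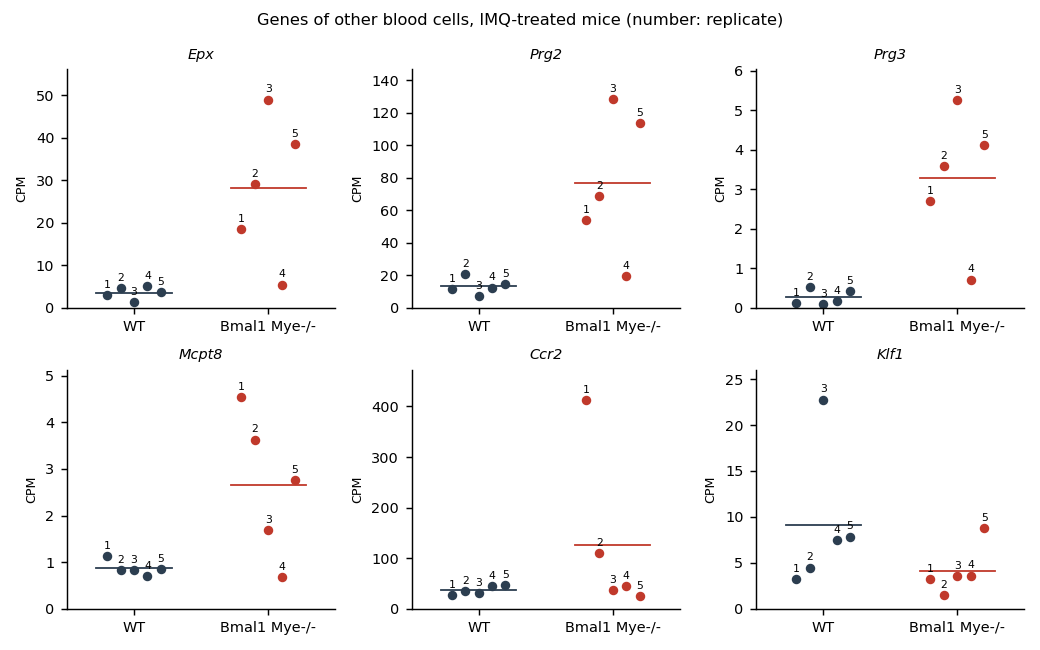
Level in CPM of 6 genes that mark other blood cells, by IMQ-treated library, with replicate numbers beside the points and lines at the group means. Epx and Prg3 do not overlap between the groups, with Bmal1 Mye-/- replicate 4 the lowest of its group. Ccr2 is highest in Bmal1 Mye-/- replicate 1 (413 CPM) and Klf1 in WT replicate 3 (22.8 CPM).

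Among the neutrophil's own granule proteins, 10 of 13 tested primary granule genes were above 0 and 21 of 22 tested secondary and tertiary granule genes below 0, with medians of 0.53 and −0.33. Only Lyz2 passed the test. Mmp9, the gelatinase of tertiary granules, was at 9942, 8510, 3281, 12100 and 11180 CPM in WT and at 1967, 7437, 6514, 7438 and 4093 CPM in Bmal1 Mye-/- (−0.71, standard error 0.43, adjusted p = 0.579). WT replicate 3 was the lowest WT library, below 4 of the 5 Bmal1 Mye-/- libraries. Bmal1 Mye-/- replicate 1 was the lowest of its group for all 22 genes of the later granules, and without it their median was −0.17. Ltf and Lcn2, iron-binding proteins of secondary granules, were at −0.03 and −0.18. The median of the primary granule list was 0.30 without WT replicate 4, without WT replicate 5 or without Bmal1 Mye-/- replicate 1, and 1.13 without WT replicate 3. Without IMQ both lists lay near 0, with medians of −0.07 and −0.01.

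Genes of protein synthesis were higher on average in Bmal1 Mye-/-, each by a small amount. Of the 81 tested cytosolic ribosomal proteins, 80 were above 0, with a median log2 fold change of 0.36, and none had an unadjusted p under 0.05 in either direction. Rpl3, of the large subunit, was at 75.9, 85.0, 218, 50.1 and 49.7 CPM in WT and at 246, 99.3, 120, 88.9 and 143 CPM in Bmal1 Mye-/- (0.54, standard error 0.43, adjusted p = 0.583). The spread between mice of 1 genotype was wider than the difference between the genotypes. WT replicate 3 had the highest WT level in 78 of the 81 genes and Bmal1 Mye-/- replicate 1 the highest of its group in 70. The median was 0.22 without Bmal1 Mye-/- replicate 1, 0.23 without WT replicate 5, 0.64 without WT replicate 3, and 0.53 without Bmal1 Mye-/- replicate 1 and WT replicate 3. Genes of ribosome assembly (median 0.45, 36 of 39 above 0), cytosolic aminoacyl-tRNA synthetases (0.34, 18 of 20) and translation factors (0.25, 34 of 35) went the same way, as did cytosolic heat shock proteins and chaperonins (0.39, 18 of 20). Without Bmal1 Mye-/- replicate 1 the medians were 0.05 for ribosome assembly, 0.16 for the synthetases, 0.12 for translation factors and 0.05 for heat shock proteins. Without WT replicate 3 they were 0.84, 0.55, 0.44 and 0.53. WT replicates 4 and 5 moved 3 of these lists as well, to 0.29 for ribosome assembly and 0.20 for the synthetases without WT replicate 4, and to 0.21 for the synthetases and 0.15 for translation factors without WT replicate 5. Without Bmal1 Mye-/- replicate 5 the synthetases were at 0.19. In untreated mice the medians of these 5 lists lay between −0.07 and −0.01. Whether the 2 conditions differ was not tested for any list.

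In mitochondria, the ribosomal proteins had a median of 0.31 (68 of 76 above 0), and 3 of 76, Mrps34, Mrps26 and Mrps24, had an unadjusted p under 0.05 in the higher direction, which is below the 5.45% of all genes. The subunits of oxidative phosphorylation were closer to 0, with a median of 0.12 (57 of 75 above 0), and so was the tricarboxylic acid cycle, with 0.06. Without Bmal1 Mye-/- replicate 1 the 3 medians were 0.11, 0.03 and −0.02, and without WT replicate 3 they were 0.48, 0.22 and 0.16. Without WT replicate 4 they were 0.20, 0.06 and 0.01. Without WT replicate 5 oxidative phosphorylation was at 0.07 and the tricarboxylic acid cycle at 0.02. Fh1, the fumarase, was at 1.06 (standard error 0.44, adjusted p = 0.579), with 41.4 CPM in Bmal1 Mye-/- replicate 1 and 8.74 to 12.5 CPM in the other 4.

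Synthesis of nucleotides and of one-carbon units had 22 of 22 tested genes above 0 and a median of 0.46. Psat1, of serine synthesis, was at 5.49, 5.63, 10.4, 4.89 and 5.42 CPM in WT and at 49.97, 13.1, 10.01, 6.79 and 12.7 CPM in Bmal1 Mye-/- (1.54, standard error 0.51, adjusted p = 0.579). Mthfd2, the mitochondrial folate enzyme, was at 30.6, 31.3, 57.2, 22.97 and 15.8 CPM in WT and at 67.1, 24.4, 89.7, 32.4 and 141 CPM in Bmal1 Mye-/- (1.17, standard error 0.48, adjusted p = 0.579). Both overlap between the groups, and the median ran from 0.25 without Bmal1 Mye-/- replicate 1 to 0.87 without WT replicate 3. Cholesterol synthesis had a median of 0.36 (20 of 23 above 0, 0.24 without Bmal1 Mye-/- replicate 5 and 0.23 without WT replicate 2), with Mvk, the mevalonate kinase, at 0.81 (standard error 0.26, adjusted p = 0.579). Glycolysis, the main energy source of neutrophils, had 19 of 22 genes below 0 and a median of −0.24. Of its group, Bmal1 Mye-/- replicate 1 was the lowest in 17 of the 22, and without it the median was −0.14. In the pentose phosphate pathway, which feeds the oxidative burst, Pgls and Rpia did not overlap between the groups (0.59 and 0.50, standard errors 0.13 and 0.15, adjusted p = 0.306 and 0.579), while the 7 genes had a median of −0.16, which was 0.00 on log2 CPM without trimmed scaling, −0.06 without Bmal1 Mye-/- replicate 1 and −0.10 without WT replicate 1.

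**Figure D4:**
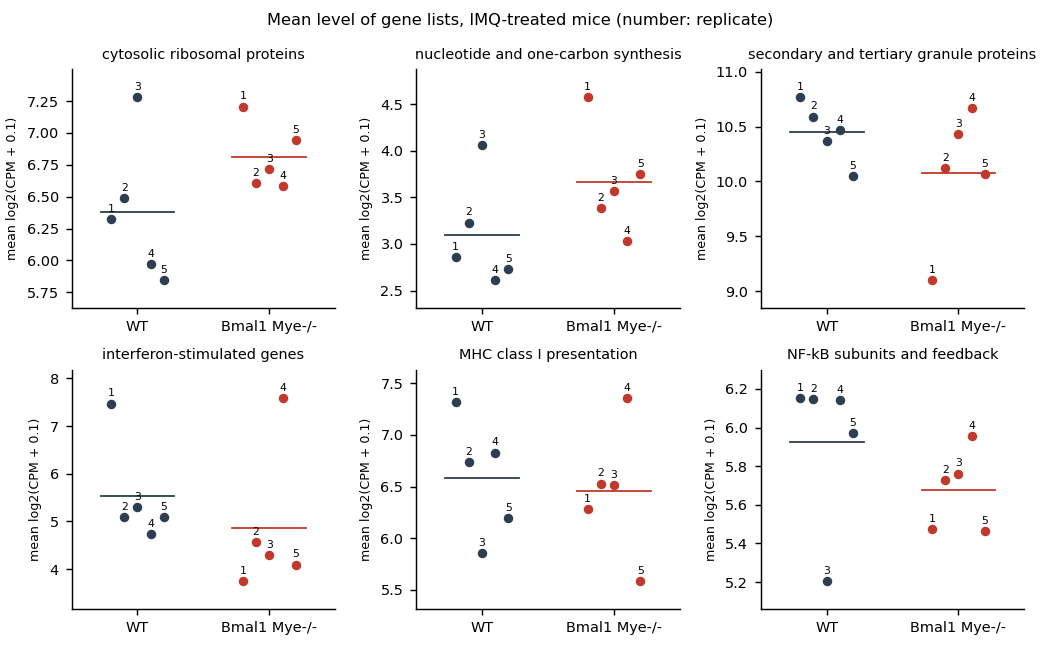
Mean log2(CPM + 0.1) over the tested genes of 6 gene lists, by IMQ-treated library, with replicate numbers beside the points and lines at the group means. WT replicate 3 and Bmal1 Mye-/- replicate 1 are the highest of their groups for ribosomal proteins and nucleotide synthesis. WT replicate 1 and Bmal1 Mye-/- replicate 4 stand above all others for interferon-stimulated genes, and the groups overlap in every panel.

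Receptors and signalling genes of inflammation were mostly below 0, and none passed the test. Chemoattractant receptors had a median of −0.37 (12 of 16 below 0, −0.24 without Bmal1 Mye-/- replicate 1 or without WT replicate 4), with Cxcr2, which draws neutrophils out of the marrow, at −0.53 (standard error 0.46) and Cxcr4, which holds them there, at −0.34 (standard error 0.22). Fpr1, the receptor of bacterial formyl peptides, was at −0.76 (standard error 0.45) and Ccrl2, a decoy-like receptor, at −0.93 (standard error 0.42). The spread of these values exceeds the differences between them. NF-kB subunits and feedback genes had 16 of 17 below 0 and a median of −0.28, or −0.43 without WT replicate 3. Rela, the p65 subunit, was at 139, 138, 97.1, 138 and 154 CPM in WT and at 80.4, 111, 109, 118 and 108 CPM in Bmal1 Mye-/- (−0.34, standard error 0.15, adjusted p = 0.579). WT replicate 3 was the only WT library below the highest Bmal1 Mye-/- library.

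Toll-like receptor signalling, the pathway that IMQ engages, had a median of −0.21 (18 of 26 below 0, −0.33 without WT replicate 3 and −0.12 without WT replicate 5). Tlr7 itself was at −0.19. Traf6, the adaptor ligase of the pathway, was at −0.38 (standard error 0.13) and Ticam2 at 0.83 (standard error 0.30), both with adjusted p = 0.579. The interleukin-1 and inflammasome list had a median of −0.20 (17 of 21 below 0, −0.42 without Bmal1 Mye-/- replicate 4 and −0.12 without WT replicate 5). Il1b was at 169, 303, 8.81, 211 and 254 CPM in WT and at 41.4, 111, 141, 218 and 17.3 CPM in Bmal1 Mye-/- (−0.84, standard error 0.78, adjusted p = 0.610), and Nlrp3, the inflammasome sensor, was at −1.06 (standard error 0.64, adjusted p = 0.579). The levels of these genes differed more among mice of 1 genotype than between the genotypes. Egr1, an immediate early gene, was at 344, 388, 50.7, 148 and 208 CPM in WT and at 73.2, 116, 142, 145 and 44.9 CPM in Bmal1 Mye-/- (−1.12, standard error 0.49, adjusted p = 0.579). All 5 Bmal1 Mye-/- libraries were below 4 of the WT libraries, and WT replicate 3 was not. Over the 29 immediate early genes the median was −0.20, which turned to 0.05 on log2 CPM without trimmed scaling. It was −0.11 without WT replicate 1, −0.41 without WT replicate 3, −0.34 without Bmal1 Mye-/- replicate 2 and −0.31 without Bmal1 Mye-/- replicate 3.

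Surface lectins and TREM receptors had 20 of 23 genes below 0 and a median of −0.31, or −0.17 without Bmal1 Mye-/- replicate 1 and −0.48 without WT replicate 3. The exception that did not overlap was Mgl2, a lectin of dendritic cells and macrophages, at 0.670, 1.05, 1.12, 0.464 and 0.656 CPM in WT and at 5.63, 2.80, 3.00, 1.45 and 1.46 CPM in Bmal1 Mye-/- (1.86, standard error 0.43, adjusted p = 0.327). Fcgrt, the neonatal Fc receptor, was at 1.30 to 3.90 CPM in WT and at 24.7, 9.56, 3.50, 2.75 and 2.89 CPM in Bmal1 Mye-/- (2.05, standard error 0.65, adjusted p = 0.579). As with the monocyte genes, replicates 1 and 2 were the highest.

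Interferon-stimulated genes had a median of −0.10, with 12 of 37 above 0, and none passed the test or had an unadjusted p under 0.05. Isg15 was at 213, 22.5, 32.9, 32.9 and 20.7 CPM in WT and at 6.91, 13.4, 11.8, 258 and 21.5 CPM in Bmal1 Mye-/-. In each genotype 1 mouse was thus far above the others. The median was above 0 in 5 of the 10 fits that left out 1 library. It was 0.71 without WT replicate 1 and 0.03 to 0.11 without Bmal1 Mye-/- replicate 1, 2, 3 or 5. It was −0.27 to −0.32 without WT replicate 2, 3, 4 or 5, and −1.70 without Bmal1 Mye-/- replicate 4. Without both WT replicate 1 and Bmal1 Mye-/- replicate 4 it was −0.84. The sign of this median therefore rests on single libraries. Apart from WT replicate 1 and Bmal1 Mye-/- replicate 4, the mean log2 level of the list was 3.744 to 4.565 in Bmal1 Mye-/- and 4.74 to 5.301 in WT. In summed level the same libraries overlapped, at 2359 to 7926 CPM in Bmal1 Mye-/- and at 6103 to 9624 CPM in WT. WT replicate 1 and Bmal1 Mye-/- replicate 4 were set aside after their values were seen, and the difference among the rest was not tested. Antigen presentation by MHC class I, induced by interferon, had a median of −0.15, which was 0.01 on log2 CPM without trimmed scaling, and the highest libraries were the same. It was 0.06 without WT replicate 1, −0.09 without WT replicate 4, −0.49 without Bmal1 Mye-/- replicate 4 and −0.04 without Bmal1 Mye-/- replicate 5.

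For the factors by which neutrophils support B cells, Tnfsf13, which encodes APRIL (chromosome 11), was at 1.09, 0.869, 2.04, 0.464 and 0.431 CPM in WT and at 3.78, 1.35, 1.54, 1.20 and 2.31 CPM in Bmal1 Mye-/- (1.06, standard error 0.49, unadjusted p = 0.0537, adjusted p = 0.579 by edgeR). The mean was higher in Bmal1 Mye-/-, with WT replicate 3 inside their range and the other 4 WT libraries below it. Tnfsf13 overlaps Tnfsf13os and Tnfsfm13 in the annotation, and the files do not say on which strand reads were counted. Without IMQ its log2 fold change was −0.19. Tnfsf13b, which encodes BAFF, was at −0.32 (adjusted p = 0.769).

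Survival and lineage genes gave no call. In the Bcl2 family, Bcl2 was at 0.61 (standard error 0.30) and Bcl2a1b, a short-lived survival protein of neutrophils, at −0.73 (standard error 0.31), both with adjusted p = 0.579, and Bcl2a1 copies share reads. Of 28 tested transcription factors of granulopoiesis 18 were above 0, with a median of 0.10, and 5 had an unadjusted p under 0.05 with a higher level in Bmal1 Mye-/-, beside 5.45% of all genes. The median was 0.21 without WT replicate 3 and 0.16 without Bmal1 Mye-/- replicate 5. The 5 genes were Meis1, Klf4, Gata2, Irf8 and Cebpb, of which Meis1 and Gata2 belong to progenitors and Klf4 and Irf8 to monocytes. Cebpb, which drives emergency granulopoiesis, was at 263, 267, 127, 261 and 182 CPM in WT and at 233, 524, 242, 348 and 370 CPM in Bmal1 Mye-/- (0.64, standard error 0.27, adjusted p = 0.579).

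**Figure D5:**
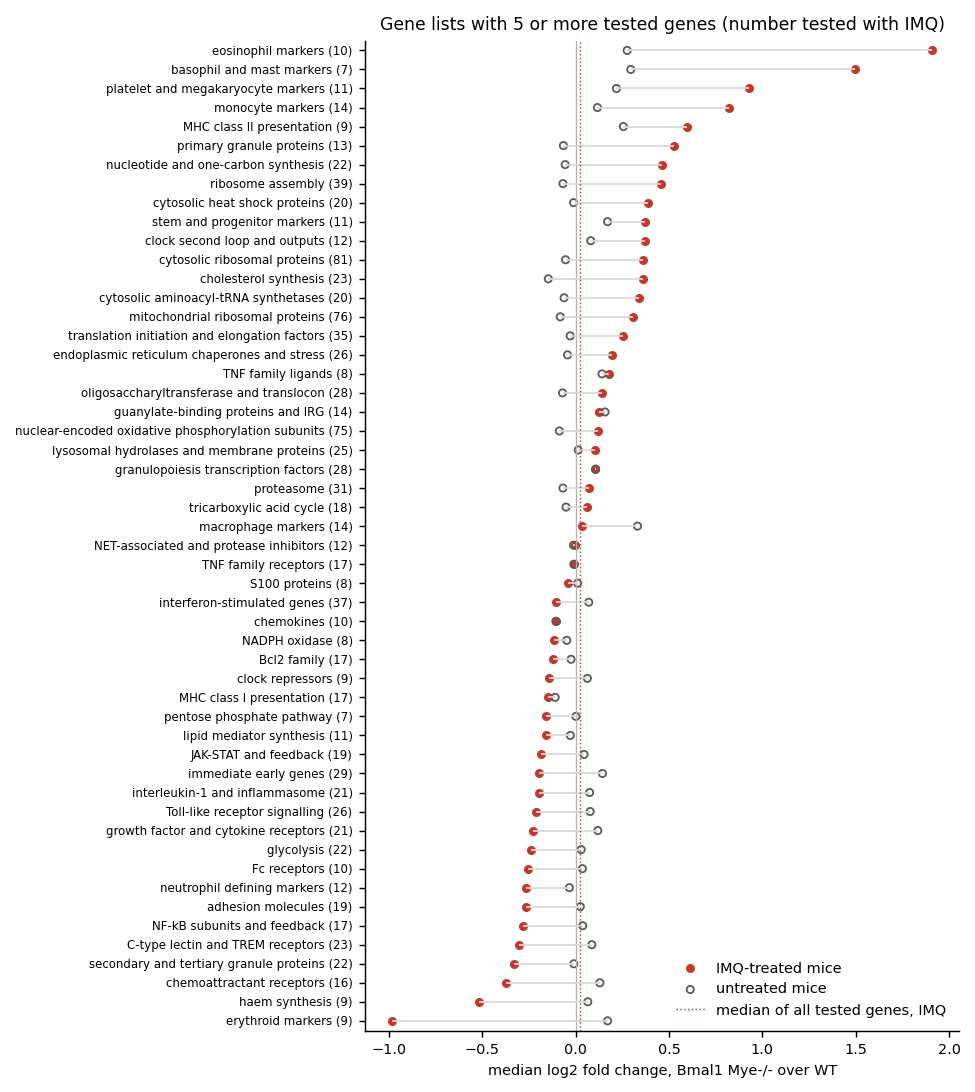
Median log2 fold change (Bmal1 Mye-/- over WT) of the 52 gene lists with 5 or more tested genes, in IMQ-treated mice (filled red points) and untreated mice (open points), with the number of genes tested with IMQ in brackets. The dotted line is the median of all tested genes with IMQ (0.02). Eosinophil markers (1.91) and erythroid markers (−0.98) are at the ends, and untreated medians lie closer to 0 for both.

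Some uncalled genes separated the groups. Hnrnpa0, an RNA-binding protein, was at 113, 117, 122, 93.0 and 95.0 CPM in WT and at 212, 175, 170, 181 and 240 CPM in Bmal1 Mye-/- (0.86, standard error 0.14, adjusted p = 0.0515). Coa4, an assembly factor of cytochrome oxidase on chromosome 7, was at 16.4, 14.1, 12.9, 15.4 and 17.4 CPM in WT and at 5.97, 6.03, 6.20, 6.89 and 10.04 CPM in Bmal1 Mye-/- (−1.12, standard error 0.18, adjusted p = 0.0515). Neither gene overlaps between the groups. Ubald2 and Ube2j2, a ubiquitin-conjugating enzyme, were at 2.91 and 1.12 (standard errors 0.49 and 0.19, adjusted p = 0.0583). Fah, the last enzyme of tyrosine breakdown, lies on chromosome 7 as well. It was at 0.523, 0.711, 8.15, 0.642 and 0.638 CPM in WT and at 20.2, 20.3, 32.3, 20.8 and 37.9 CPM in Bmal1 Mye-/- (3.62, standard error 0.82, adjusted p = 0.295). WT replicate 3 alone set the spread of its group, and no WT library reached the Bmal1 Mye-/- range. Without WT replicate 3 the log2 fold change was 5.38 (adjusted p = 9.19e-06), without any other 1 library adjusted p was 0.367 to 0.814, and 6 of 20 alternative fits called the gene. In untreated mice its log2 fold change was 4.11 (adjusted p = 1.54e-06). The other 10 genes of this kind with a mean of at least 10 CPM and the largest differences had log2 fold changes of −0.63 for Fam103a1 and of 0.59 for Pgls to 1.23 for Samd1. Of these 10, Fam103a1, Mesdc1 and Acer3 lie on chromosome 7.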

How the data were processed

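The authors prepared 1 poly(A) library per mouse (NEBNext Ultra II, on 1 of 2 sequencers, not given by library), and deposited raw read counts per gene on mm10. The methods name TopHat for alignment, whereas the submitters' processing notes list STAR 2.7.8a and HTSeq 2.0.1. The annotation and strand setting are not given in the sources used here. Lines that name no gene, among them 51.9% to 57.8% of reads on no feature in the IMQ libraries, were left out. A table of all libraries that repeats the counts was not used.

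Groups and replicate numbers were taken from the labels. Nothing was pooled, and replicates differed by far more than counting error (chi-square per degree of freedom 68.4 to 731). Intervals from counting error would therefore be too narrow, and the spread between the 5 mice is given. Analysis used edgeR 4.0.16 in R 4.3.3: low-count filter, TMM scaling (factors 0.848 to 1.39), quasi-likelihood fit of the 10 IMQ libraries, and Benjamini-Hochberg adjustment over 12648 genes at 0.05. The untreated libraries were fitted likewise. Standard errors were computed from the F statistic. The main fit was also run on simulated counts, drawn independently for each gene and library. That run does not cover libraries that stand apart, as some do here. CPM are scaled by TMM factors. Alternatives were other scaling, filters and tools (DESeq2 1.42.0, limma 3.58.1), all 4 groups in 1 fit, a replicate block and each library left out. Positions were matched by symbol for 23204 genes, by synonym for 1096 and for 121 not at all (RefSeq, GRCm38.p6).

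Named are all called genes, chosen members of 55 gene lists, the 10 uncalled genes of smallest p and the 15 uncalled genes with the largest fold among those of at least 10 CPM whose groups do not overlap. The members, the lists and the choice of a fit of the 10 IMQ libraries alone were made with earlier results of these data known, so lists are described by counts and medians without a test. Rnaset2a and genes given for the libraries that stand apart were added after their values were seen. Further list members outside that choice were also named with their values known, among them Per3, Wee1, Psat1, Mthfd2, Rela and Traf6. Psat1, Fh1, Fcgrt, Mgl2 and Ccrl2 are the extreme members of their lists, so such genes do not stand for a list. Neutrophil marker Ly6g was not analysed here.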

Additional observations from a re-analysis of the deposited data

Results flagged for a closer look

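In 36 genes named in the text, the highest and lowest library of each IMQ group of 5 were compared with the nearest other library by Dixon's test. In 12 of 72 groups, 1 library lay further from the rest than the 95% limit of 0.71 of the range of its group. For normally distributed values, about 1 in 20 groups would pass that limit. The test was made on CPM and not on log2 CPM, and most of the 12 flags are at the high end. The 12 of 72 can therefore not be set against 1 in 20. Bmal1 Mye-/- replicate 4 was the highest library of its group for Gm4759 (86.7 CPM, the next 31.3), Trim30d (1.86, the next 0.522), Trim34b (26.4, the next 6.95), Gm1966 (55.8, the next 17.2) and Isg15 (258, the next 21.5). The first 4 of these genes lie on chromosome 7 and passed the test. WT replicate 1 was the highest WT library for Isg15, at 213 CPM with the next at 32.9. Bmal1 Mye-/- replicate 5 was the highest for Coa4, at 10.04 CPM with the next at 6.89, and for Trim68, at 6.55 CPM with the next at 4.35. Bmal1 Mye-/- replicate 1 was the highest for Hddc3, at 5.28 CPM with the next at 2.47. WT replicate 3 was the highest WT library for Fah, at 8.15 CPM with the next at 0.711, and WT replicate 5 for Ppfibp2, at 3.68 CPM with the next at 1.93. WT replicate 4 was the lowest WT library for Mir762, at 0.517 CPM with the next at 0.652.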

How the results depend on the processing

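Of the 16 genes called with IMQ, no log2 fold change changed sign in any alternative. Over 20 alternative fits, 225 of their values kept the call and 92 lost it, and 7 genes kept it in each fit that tested them (Trim12a, Lyz2, Ppfibp2, Inppl1, Mical2, Gm4759 and Trim30d). The number of calls was 15 with RLE factors, 13 without a filter and 13 with at least 10 counts in every library, 23 by limma on log2(CPM + 0.1), but 63 by DESeq2, 50 by limma-voom with quality weights and 41 in 1 fit of all 4 groups, of which 16, 16 and 15 are among the 16. With a replicate block it was 7, all among the 16, but same-numbered libraries share only a number: their deviations from the group means correlated from −0.481 to 0.335, and replicate 4 alone correlated best with its own number. It was 7 to 19 when 1 library was left out: 9 without WT replicate 1, 7 without WT replicate 2, 8 without WT replicate 4, 8 without WT replicate 5, 9 without Bmal1 Mye-/- replicate 3 and 10 without replicate 5. With alternatives chosen after seeing the data it was 21 without WT replicate 3 and Bmal1 Mye-/- replicate 1, and 9 without WT replicate 1 and Bmal1 Mye-/- replicate 4. Genes at an unadjusted p under 0.05 numbered 3229 without WT replicate 3, against 875 with all libraries. Without IMQ the number of calls was 59, and it was 110 by DESeq2, 90 by limma-voom with quality weights, 29 in 1 fit of all 4 groups, 33 with a replicate block and 35 to 90 without 1 library. It was 35 without WT replicate 1, 36 without WT replicate 3, 35, 35 and 36 without Bmal1 Mye-/- replicates 1, 2 and 5, and 90 without replicate 3. The cause was not tested, beyond the fewer libraries of the fits that leave some out. The median of all tested genes was 0.20 on log2(CPM + 0.1) without TMM scaling and 0.14 without a filter, so that medians on those scales are to be read against it. Of the list medians, 1038 moved by less than the standard deviation of the list's mean level over the 5 WT libraries, and 62 by more. A WT library that stands apart widens that measure, as WT replicate 1 does for interferon-stimulated genes. Replicates are single mice of unknown litter or batch, 5 per group limit the calls, and the sequencer of each library is not given.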
